A study of Mus musculus with 69 samples.

Results

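Umod, Slc12a1, Egf, Bsnd and Casr, genes of the thick ascending limb of the loop of Henle, were followed through RNA-seq libraries of mouse kidney. They were taken by symbol from the count table, which held each symbol in a single row, so they were 5 of 24411 genes, and all 5 were among the 21175 genes tested. The study tagged newly made RNA with 4-thiouracil (4-TU), which cells incorporate when they carry the enzyme UPRT, and pulled the tagged RNA down from whole-kidney RNA. All mice received 4-TU at 430 mg/kg into the peritoneum 4 hours before dissection and carried a Cre driver with a Cre-dependent UPRT allele, written Hoxb7Cre;UPRTf/+ or Atp6b1v1Cre;UPRTf/+. Hoxb7Cre is active in the collecting duct, and the second driver, spelled Atp6v1b1Cre in the study's methods and from here on, is active in its intercalated and double-positive cells. Libraries came from control mice, from mice with ischemia (iAKI, both renal pedicles clamped for 10 minutes and labelling 24 hours later) and from mice with volume depletion (vAKI, no food or water for 72 hours).

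The 69 libraries comprised 10 control, 7 iAKI and 7 vAKI pulldowns from Hoxb7Cre mice, 11 control, 6 iAKI and 7 vAKI pulldowns from Atp6v1b1Cre mice, and 21 control libraries of total RNA that was not pulled down. Mice were 5.5 months old, except for 2 female Hoxb7Cre controls, 3 male Atp6v1b1Cre controls and 5 of the total RNA controls, which were 3 months old. Total RNA was sequenced in controls only, so the effect of an injury on the whole-kidney level of a gene was not analysed here. Neither driver is stated to be active in the thick ascending limb, and which cells the 5 transcripts in the pulldowns came from was not tested.

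The thick ascending limb reabsorbs salt without water and so dilutes the urine and builds the medullary gradient. Slc12a1 encodes NKCC2, the apical sodium, potassium and chloride cotransporter that loop diuretics block, and Bsnd encodes barttin, an accessory subunit of chloride channels. Casr encodes the calcium-sensing receptor, which lowers calcium and salt reabsorption in the limb. Umod encodes uromodulin, the most abundant protein of normal urine, and Egf encodes the precursor of epidermal growth factor, which the limb and the distal convoluted tubule release. Barttin is also made in intercalated cells of the collecting duct.

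Depth was 12618062 to 30305464 gene counts per library, with a median of 20868430. In every library the 5 genes were well above the counting floor: Casr, the lowest, had 335 to 4238 counts and Umod had 4321 to 167530 counts. The drivers' own cells were visible in the control pulldowns. All 5 principal cell markers were higher than in total RNA with Hoxb7Cre, and all 5 intercalated cell markers were higher with Atp6v1b1Cre. Of all genes, 66.6% and 63.8% had an adjusted p under 0.05 there, in either direction. Principal cell markers with Atp6v1b1Cre and intercalated cell markers with Hoxb7Cre are not given here. Proximal tubule markers were lower in 7 of 8 cases with Hoxb7Cre and in 8 of 8 with Atp6v1b1Cre. The library numbers in the labels ran in 3 separate series, with 36, 21 and 12 libraries, called A, B and C here. All Hoxb7Cre iAKI and vAKI libraries were of series A, whereas their controls came from several series, so values within series A are given beside the pooled ones.

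In GENCODE M21 on GRCm38, the build named in the submitters' notes as mm10, Umod lies on chromosome 7 from 119462711 to 119479282 on the minus strand with 2763 exonic bases, Slc12a1 on chromosome 2 from 125152505 to 125230002 on the plus strand with 5763, and Egf on chromosome 3 from 129677565 to 129755316 on the minus strand with 11275. Bsnd lies on chromosome 4 from 106483456 to 106492283 on the minus strand with 2756 exonic bases, and Casr on chromosome 16 from 36493696 to 36562141 on the minus strand with 4718. Exons of Umod overlap Gm44588 on the other strand, and exons of Egf overlap 6330410L21Rik and Gm42697, and with an unstranded kit their reads cannot be told apart. RefSeq promoter sequences (GRCm38.p6) were at hand for 4 of the 5 genes, all but Bsnd. The bases before the annotated gene start are shown for the 3 most abundant members, all of them lower in the control pulldowns than in total RNA. Capitals mark GTTAAT, the core of the motif of the tubule factor HNF1. The windows are chr7:119479283-119479512 (minus strand), chr2:125152350-125152504 (plus strand) and chr3:129755323-129755572 (minus strand).
Umod: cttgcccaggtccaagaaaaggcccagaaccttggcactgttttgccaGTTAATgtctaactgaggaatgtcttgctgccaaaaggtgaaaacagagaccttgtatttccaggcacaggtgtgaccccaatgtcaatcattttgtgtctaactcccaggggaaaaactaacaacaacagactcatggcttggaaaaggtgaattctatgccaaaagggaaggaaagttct
Slc12a1: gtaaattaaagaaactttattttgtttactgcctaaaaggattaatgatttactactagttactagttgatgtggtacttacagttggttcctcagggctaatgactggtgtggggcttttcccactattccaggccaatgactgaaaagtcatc
Egf: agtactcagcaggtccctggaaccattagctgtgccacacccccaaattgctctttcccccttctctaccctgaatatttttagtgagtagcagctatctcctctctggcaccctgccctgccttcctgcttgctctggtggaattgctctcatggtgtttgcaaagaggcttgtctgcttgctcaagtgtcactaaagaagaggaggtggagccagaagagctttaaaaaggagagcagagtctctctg

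The search, on both strands, covered the 250 bases before the RefSeq start, of which any part inside the annotated gene is not printed. GTTAAT was found for Umod only. Neither AAGGTCA (the motif of estrogen-related receptors) nor TATAAA (the TATA box) was found for Umod, Slc12a1, Egf or Casr. For Slc12a1, whose printed window has 155 bases, the sequence checked after the RefSeq start was not found in its GENCODE transcripts. Among 27025 RefSeq promoters of 250 bases before the start, 6.52% held GTTAAT, 4.05% held AAGGTCA and 13.0% held TATAAA. These matches describe the letters of the windows and no binding was measured.

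Umod was the highest of the 5 genes in whole-kidney RNA and lost most of that lead in the pulldowns. Levels between genes were compared as CPM per kilobase of exon, where CPM is the usual scaling of counts to library size, here with the trimmed mean of M values (TMM) over all libraries. In control total RNA the level of Umod was 2165 ± 395 CPM per kb (SD, n = 21), followed by Slc12a1 at 372 ± 93.6, Egf at 247 ± 56.1, Bsnd at 29.1 ± 4.91 and Casr at 8.67 ± 2.29. By this measure each gene was above the next in 21 of 21 libraries, and only the ranges of Slc12a1 and Egf overlapped. The length joins the exons of all annotated transcripts, 11275 bases from 9 transcripts for Egf, so the place of Egf depends on it. Before division by length, mean Egf was above Slc12a1 in total RNA, at 2787 against 2145 CPM. It was also above Bsnd in Atp6v1b1Cre control pulldowns, at 673 against 169 CPM. In Hoxb7Cre control pulldowns the order was the same, with Umod at 235 ± 82.8 CPM per kb (SD, n = 10), Slc12a1 at 162 ± 63.9, Egf at 69.8 ± 31.6, Bsnd at 39.5 ± 8.48 and Casr at 15.9 ± 6.38, but Umod was above Slc12a1 in 8 of 10 libraries rather than in all. In Atp6v1b1Cre control pulldowns Umod stood at 199 ± 43.3 CPM per kb (SD, n = 11), Slc12a1 at 166 ± 62.1 and Casr at 19.5 ± 7.17, while Bsnd at 61.2 ± 7.43 and Egf at 59.7 ± 23.8 had changed places, Bsnd being higher in 7 of 11 libraries. The ranges of neighbours overlapped in most of these pulldown pairs, so that Umod and Slc12a1, and Bsnd and Egf, were not separated there. Together the 5 genes took 0.584% to 1.25% of the counts in total RNA, 0.169% to 0.424% in Hoxb7Cre control pulldowns and 0.139% to 0.383% in Atp6v1b1Cre control pulldowns.

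**Figure D1:**
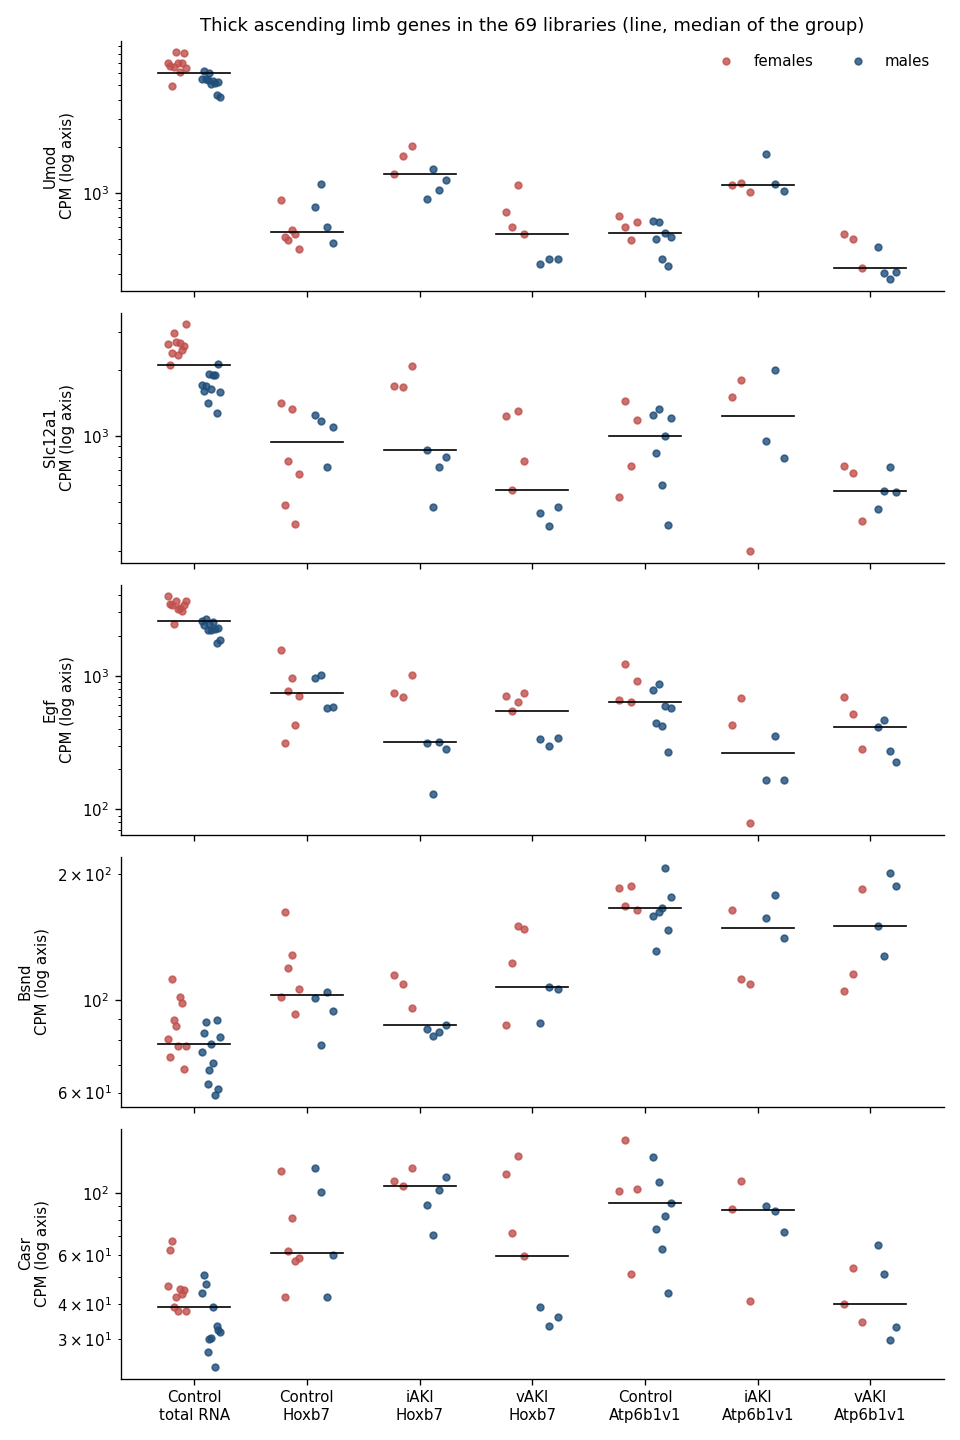
Normalized level (CPM, log axis) of Umod, Slc12a1, Egf, Bsnd and Casr in each of the 69 libraries, by group and sex, with a line at the median of each group. Umod and Egf in the control pulldowns lie wholly below total RNA, and in total RNA Umod spans 4177 to 8207 CPM.

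Umod, Slc12a1 and Egf were lower, and Bsnd and Casr higher, in the control pulldowns of both drivers than in control total RNA, which asks how far the pulldown departs from the whole kidney. All 5 members passed in both comparisons, against a background of 66.6% of all genes for Hoxb7Cre and 63.8% for Atp6v1b1Cre (edgeR's quasi-likelihood test, Benjamini-Hochberg adjusted p under 0.05, sex in the model). The comparisons share the total RNA libraries. Taken in order of library number, control pulldowns and total RNA libraries match in driver, sex and age. They may thus come from the same mice, which the labels do not say, and the model treats them as separate. The pools differ in the cells that took up the tag and in the age of the RNA, since the tag was given 4 hours before dissection. The paper also reports some labelling, far weaker, without Cre, and states that the method may overrepresent uracil-rich RNA. The parts of these in the values cannot be told apart. Nor can fewer cells of a type and less RNA per cell be told apart in any of these bulk libraries. Since the labels do not say whether libraries came from separate litters or days, p-values measure the spread between these libraries.

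For Umod, the lowest, median and highest levels were 4177, 6030.4 and 8207 CPM in total RNA, 434, 558 and 1144 CPM in Hoxb7Cre and 337, 549 and 710.2 CPM in Atp6v1b1Cre control pulldowns. The groups did not overlap, which held for 25.9% of all genes with Hoxb7Cre and for 24.1% with Atp6v1b1Cre. Umod was lower by a log2 fold change of -3.16 ± 0.15 (adjusted p = 2.22e-23) and -3.38 ± 0.15 (adjusted p = 6.27e-25), the largest difference among the 5. Egf, the growth factor precursor, had 1770.4, 2556 and 3966 CPM in total RNA, 314, 740.5 and 1556 CPM in Hoxb7Cre and 268, 637 and 1228 CPM in Atp6v1b1Cre pulldowns, again without overlap, at a log2 fold change of -1.80 ± 0.18 (adjusted p = 2.9e-12) and -1.96 ± 0.18 (adjusted p = 9.54e-14). Slc12a1 had 1278, 2109.7 and 3263 CPM in total RNA, 396, 938 and 1422 CPM in Hoxb7Cre and 394, 1001 and 1447 CPM in Atp6v1b1Cre pulldowns, so its groups overlapped, and its log2 fold changes were -1.15 ± 0.19 (adjusted p = 5.78e-07) and -1.07 ± 0.18 (adjusted p = 1.38e-06). The 3 genes were thus lower by unequal amounts, and counts of Umod per count of Slc12a1 went from a median of 2.95 in total RNA to 0.646 and 0.548 in the control pulldowns.

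Bsnd, the chloride channel subunit, had 59.2, 78.3 and 112 CPM in total RNA, 77.9, 102.9 and 162 CPM in Hoxb7Cre and 131, 166 and 207 CPM in Atp6v1b1Cre control pulldowns, and only the Atp6v1b1Cre libraries lay wholly above total RNA. Its log2 fold changes were 0.45 ± 0.08 (adjusted p = 3.48e-06) and 1.14 ± 0.08 (adjusted p = 7.78e-18). Casr, the receptor, had 23.8, 39.1 and 67.3 CPM in total RNA, 42.6, 61.2 and 123 CPM in Hoxb7Cre and 43.9, 92.2 and 155 CPM in Atp6v1b1Cre pulldowns, with log2 fold changes of 0.91 ± 0.16 (adjusted p = 3.88e-06) and 1.24 ± 0.16 (adjusted p = 2.81e-09) and overlapping groups. For comparison, the median log2 fold change of all 21175 genes was 0.11 in both.

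**Figure D2:**
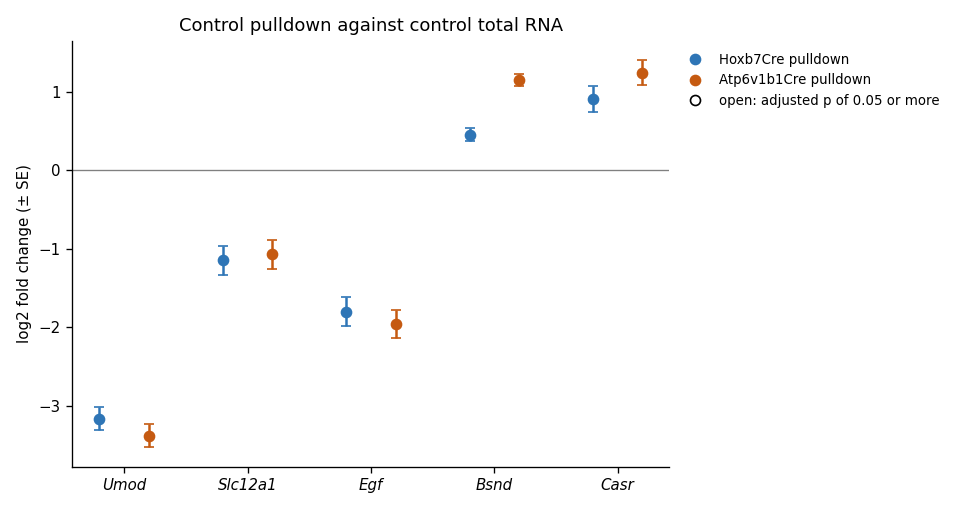
Log2 fold change (± SE) of each gene in control pulldowns against control total RNA, for Hoxb7Cre (n = 10) and Atp6v1b1Cre (n = 11) against 21 total RNA libraries. Filled points passed at an adjusted p under 0.05, as all did, with Umod lowest at -3.16 and -3.38 and Casr highest at 0.91 and 1.24.

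Between the drivers, Bsnd was the only member to pass. Atp6v1b1Cre control pulldowns were higher than Hoxb7Cre control pulldowns for Bsnd by a log2 fold change of 0.69 ± 0.09 (adjusted p = 3.52e-07), against a background of 9.93% of genes passing. For Umod the difference was -0.22 ± 0.14 (adjusted p = 0.435) with a 95% interval of -0.51 to 0.07, for Slc12a1 0.08 ± 0.20 (adjusted p = 0.903), for Egf -0.16 ± 0.19 (adjusted p = 0.712) and for Casr 0.33 ± 0.19 (adjusted p = 0.347). Of these 4, Umod passed in males alone, where it was lower with Atp6v1b1Cre at -0.57 (adjusted p = 0.0484), and stood at 0.08 (adjusted p = 0.878) in females. All 5 intercalated cell markers were also higher with Atp6v1b1Cre, by log2 fold changes from 0.43 (Slc26a4) to 0.88 (Foxi1), and their part in the Bsnd difference was not tested.

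At 24 hours after ischemia, Egf had fallen in male pulldowns of both drivers, and Umod had risen in those of Atp6v1b1Cre. In Hoxb7Cre males 1 of 5 members passed, against 6.13% of all genes, and in Atp6v1b1Cre males 2 of 5 passed, against 8.51%. The main comparisons used the 22 male pulldowns of 5.5 months in a single model. Egf in Hoxb7Cre males was 577, 579.8, 958 and 1006 CPM in 4 controls and 130.3, 282, 313 and 320.0 CPM in 4 iAKI libraries. Every iAKI library lay below every control, where 15.9% of all genes had groups that did not overlap, and Egf fell by a log2 fold change of -1.56 ± 0.31 (adjusted p = 0.00568). Within series A, which leaves 2 of the 4 controls, the value was -1.91 (adjusted p = 0.000890). Egf in Atp6v1b1Cre males was 418, 441, 789.9 and 873 CPM in 4 controls and 167, 167 and 357 CPM in 3 iAKI libraries, again without overlap (20.6% of all genes did not overlap here), at -1.46 ± 0.35 (adjusted p = 0.0119). Within series A, which leaves iAKI replicates 1 and 4 and controls 6 and 9, it was -1.25 (adjusted p = 0.0287). When single libraries were left out of the pooled fit, the Atp6v1b1Cre call was lost only without iAKI replicate 1 (adjusted p = 0.0975). Egf there was 167.3 CPM, close to its level in iAKI replicate 5, without which the call held.

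Umod went the other way from Egf in the same libraries. In Atp6v1b1Cre males it was 371, 501, 651 and 657 CPM in controls and 1029, 1140.3 and 1801 CPM after ischemia, with no overlap, and rose by a log2 fold change of 1.27 ± 0.25 (adjusted p = 0.00424). Within series A the value was 1.33 (adjusted p = 0.00260). The highest of the 3 was iAKI replicate 1, and without it Umod was at 1.000 with an adjusted p of 0.0537. In Hoxb7Cre males Umod was 475, 604, 815 and 1144 CPM in controls and 915, 1047, 1207 and 1435 CPM after ischemia. These groups overlapped through control replicate 3, the highest control, and Umod did not pass at 0.62 ± 0.24 (adjusted p = 0.127). Without that control it stood at 0.88 (adjusted p = 0.0416), and within series A at 0.22 (adjusted p = 0.577).

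Slc12a1, the cotransporter, was 725, 1103, 1177 and 1254 CPM in Hoxb7Cre controls and 474, 725, 802 and 865 CPM after ischemia, with groups that overlapped and a log2 fold change of -0.56 ± 0.27 (adjusted p = 0.238). In Atp6v1b1Cre males it was 599, 840.0, 1257 and 1329.5 CPM in controls and 795, 955 and 2019.5 CPM after ischemia, at 0.31 ± 0.29 (adjusted p = 0.556). Its highest value there, in iAKI replicate 4, stood well above the others, and without that library the estimate was -0.20. Bsnd varied little among these libraries, with 77.9 to 104.3 CPM in Hoxb7Cre controls and 81.8 to 87.2 CPM after ischemia. Its log2 fold changes were -0.15 ± 0.13 (adjusted p = 0.572) with Hoxb7Cre and 0.03 ± 0.14 (adjusted p = 0.979) with Atp6v1b1Cre, and the 95% intervals were -0.42 to 0.13 and -0.27 to 0.32. Casr was 42.6, 60.2, 100.9 and 123 CPM in Hoxb7Cre controls and 70.6, 90.8, 102.6 and 114 CPM after ischemia, at 0.22 ± 0.28 (adjusted p = 0.708), and at -0.21 ± 0.30 (adjusted p = 0.732) with Atp6v1b1Cre. The sign of the Casr value in Hoxb7Cre turned within series A (-0.25), so no direction is given for it.

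Markers of other cells moved in the same comparisons. In Hoxb7Cre males 4 of 5 principal cell markers were lower after ischemia, their summed level being 976 to 1214 CPM against 2615 to 3313 CPM in controls. In Atp6v1b1Cre males 3 of 8 proximal tubule markers were lower, Slc34a1 the most at -2.43, with sums of 1665 to 2089 CPM against 3672 to 5500 CPM in controls. All 8 proximal tubule markers had counts in every one of these libraries. The part of these shifts in the Egf and Umod values was not tested.

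After volume depletion, Umod, Slc12a1, Egf and Casr had all fallen in male Hoxb7Cre pulldowns, and Bsnd stayed near its control level. In Hoxb7Cre males 4 of 5 members passed, all lower, against 35.5% of all genes passing and 17.6% passing as lower. In Atp6v1b1Cre males 2 of 5 passed, both lower, against 14.6% passing and 6.47% passing as lower. Umod in Hoxb7Cre males was 475, 604, 815 and 1144 CPM in 4 controls and 345, 373 and 375 CPM in 3 vAKI libraries, a log2 fold change of -1.05 ± 0.26 (adjusted p = 0.00306). Slc12a1 was 725, 1103, 1177 and 1254 CPM in controls and 388, 443 and 475 CPM after volume depletion, at -1.28 ± 0.30 (adjusted p = 0.00171). Egf was 577, 579.8, 958 and 1006 CPM and then 300.1, 337 and 344 CPM, at -1.25 ± 0.34 (adjusted p = 0.00650). For these 3 genes every depleted library lay below every control, and the depleted libraries were close to each other.

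Casr followed the same pattern, with 42.6, 60.2, 100.9 and 123 CPM in Hoxb7Cre controls and 33.5, 35.9 and 39.2 CPM after volume depletion, without overlap, at -1.17 ± 0.31 (adjusted p = 0.00501). Groups did not overlap for 39.5% of all genes in this comparison, so the 4 of 5 members without overlap are read against a high background. Within series A the values were -1.41 (adjusted p = 4.71e-05) for Umod, -1.47 (adjusted p = 0.000218) for Slc12a1, -1.57 (adjusted p = 0.000644) for Egf and -1.62 (adjusted p = 7.79e-06) for Casr. Leaving out any library of the 22 kept all 4 calls. Bsnd was 77.9, 94.3, 101.1 and 104.3 CPM in controls and 87.9, 106.2 and 107.2 CPM after volume depletion, at 0.09 ± 0.14 (adjusted p = 0.670) with a 95% interval of -0.20 to 0.39.

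In Atp6v1b1Cre males the same 4 genes had estimates below 0 after volume depletion, but Casr and Slc12a1 alone passed. Casr was 63.3, 74.5, 109.7 and 134 CPM in 4 controls and 29.8, 33.2, 51.2 and 65.1 CPM in 4 vAKI libraries, which overlapped by their nearest values, and fell by a log2 fold change of -1.07 ± 0.28 (adjusted p = 0.0139). Its call was lost without control replicate 6 (adjusted p = 0.0689), without vAKI replicate 6 (adjusted p = 0.0585) or without vAKI replicate 7 (adjusted p = 0.0534). Slc12a1 was 599, 840.0, 1257 and 1329.5 CPM in controls and 462, 555, 559 and 721 CPM after volume depletion and passed narrowly, at -0.79 ± 0.27 (adjusted p = 0.0496).

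That Slc12a1 call did not hold in 16 of 22 fits that each left out 1 library, where its adjusted p lay between 0.0541 and 0.162. They were the fits without Atp6v1b1Cre vAKI replicates 1, 2, 6 or 7 and control replicates 6, 9 or 10, and without Hoxb7Cre controls 2, 3 or 5, iAKI replicates 4, 6 or 7 and vAKI replicates 4, 6 or 7. Umod was 371, 501, 651 and 657 CPM in controls and 276, 303, 309 and 445 CPM in depleted mice, at -0.69 ± 0.24 (adjusted p = 0.0525), and Egf was 418, 441, 789.9 and 873 CPM and 227, 272, 414 and 465 CPM, at -0.85 ± 0.31 (adjusted p = 0.0668). Both missed the threshold narrowly, and DESeq2 placed them past it, at adjusted p = 0.0254 and adjusted p = 0.0344. Bsnd was at 0.12 ± 0.13 (adjusted p = 0.588). Within series A, with 2 libraries in each group, Casr was at -0.85 (adjusted p = 0.0334) and Slc12a1 at -1.04 (adjusted p = 0.0397).

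**Figure D3:**
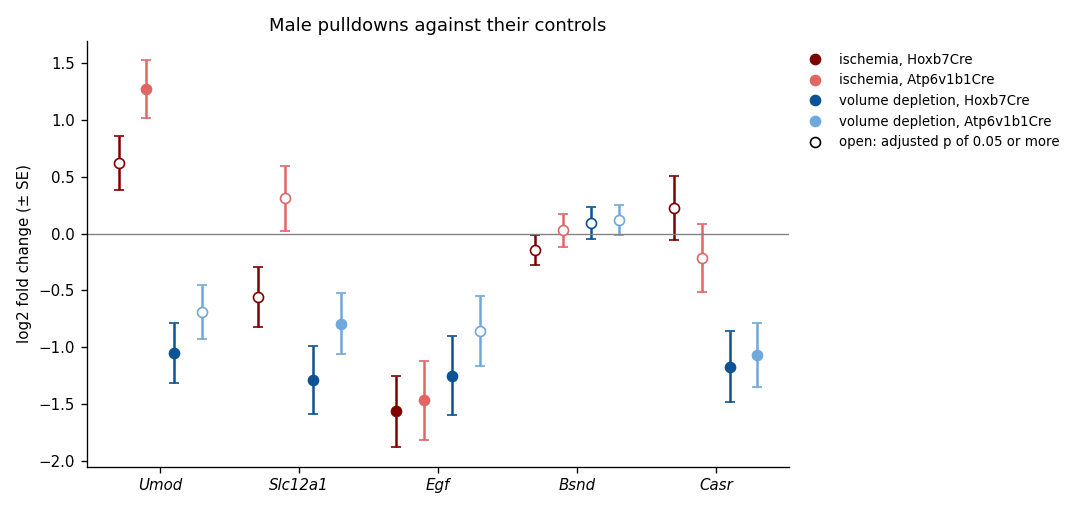
Log2 fold change (± SE) of each gene in male pulldowns after ischemia or volume depletion against the controls of the same driver, with 3 or 4 libraries in each group. Open points did not pass at an adjusted p under 0.05. Egf lies below 0 in all 4 comparisons, Umod is above 0 after ischemia and below 0 after volume depletion, and Bsnd stays between -0.15 and 0.12.

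Other cells' markers shifted after volume depletion too. All 5 principal cell markers were lower in Hoxb7Cre males, from -1.95 for Aqp4 to -0.70 for Scnn1b, and 2 of 4 distal convoluted tubule markers were lower there and 3 of 4 with Atp6v1b1Cre, including Slc12a3 at -1.32 and -1.73. Of 5 intercalated cell markers, Foxi1 and Atp6v0d2 were lower with each driver, at -1.85 and -1.14 with Hoxb7Cre and at -1.01 and -1.05 with Atp6v1b1Cre. Their list summed to 585 to 949 CPM in depleted Atp6v1b1Cre males against 960.5 to 1270 CPM in controls, and to 499 to 979 CPM against 745 to 1061 CPM with Hoxb7Cre. The summed level of the distal convoluted tubule markers was 226 to 314 CPM in depleted Hoxb7Cre males against 465 to 767 CPM in controls. Of 3 markers of the macula densa, the plaque of cells at the end of the limb, 2 were higher with each driver, and Ptgs2 was at 2.76 and 2.25. The part of these shifts in the values of the 5 genes was not tested.

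Set directly against each other, ischemia and volume depletion differed most in Umod. In Hoxb7Cre males 2 of 5 members passed, both higher after ischemia, against 33.3% of all genes, and in Atp6v1b1Cre males 3 of 5, all higher after ischemia, against 29.3%. Umod was higher after ischemia by a log2 fold change of 1.67 ± 0.27 (adjusted p = 5.67e-05) with Hoxb7Cre and 1.96 ± 0.26 (adjusted p = 1.16e-05) with Atp6v1b1Cre, and its levels after the 2 injuries did not overlap with either driver, as held for 42.9% of all genes with Hoxb7Cre and 29.6% with Atp6v1b1Cre. Casr was higher by 1.39 ± 0.31 (adjusted p = 0.00142) and 0.85 ± 0.30 (adjusted p = 0.0341). The second of these was lost without iAKI replicate 1 or 4 or vAKI replicate 6 or 7, with adjusted p up to 0.104, and within series A, at 0.59 (adjusted p = 0.0657). Slc12a1 was higher by 1.10 ± 0.29 (adjusted p = 0.00555) with Atp6v1b1Cre and 0.73 ± 0.29 (adjusted p = 0.0593) with Hoxb7Cre. Without iAKI replicate 4 the Atp6v1b1Cre value was 0.60 (adjusted p = 0.119).

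Egf did not pass between the injuries, at -0.31 ± 0.33 (adjusted p = 0.500) and -0.61 ± 0.34 (adjusted p = 0.188), with 95% intervals of -0.999 to 0.37 and -1.31 to 0.09. Without iAKI replicate 4 Egf passed with Atp6v1b1Cre, at -1.05 (adjusted p = 0.0429). Bsnd was at -0.24 ± 0.14 (adjusted p = 0.214) and -0.09 ± 0.14 (adjusted p = 0.682).

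The counts of Umod per count of Egf in the same library describe this contrast within a library, where scaling cancels. In male Hoxb7Cre pulldowns the ratio was 0.820 to 1.14 in controls, 2.92 to 11.0 after ischemia and 1.02 to 1.24 after volume depletion. In male Atp6v1b1Cre pulldowns it was 0.745 to 1.14 in controls, 3.19 to 10.8 after ischemia and 0.652 to 1.36 after volume depletion. In females the ischemic libraries had ratios of 1.77 to 2.51 with Hoxb7Cre and 1.70 to 13.0 with Atp6v1b1Cre, against 0.577 to 1.66 and 0.494 to 1.08 in their controls. After volume depletion females had 0.726 to 1.78 with Hoxb7Cre, which overlapped the ischemic range, and 0.776 to 1.14 with Atp6v1b1Cre, which did not. With both drivers and in both sexes the ischemic range lay above the control range, although in Hoxb7Cre females by a small gap. Umod and Egf were joined after their directions in males were known, so the separation in males adds no support. How often ratios of other gene pairs separate was not examined. The ratio in control total RNA was 1.47 to 2.68.

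Whether the drivers' pools responded differently was tested as the difference of the responses. By edgeR's quasi-likelihood test 0 of 5 members passed for ischemia, where 7.79% of all genes did, and 0 of 5 for volume depletion, where 4.20% did. DESeq2 also called 0 members in both, and at an unadjusted p under 0.05 there was 1 member, Slc12a1 for ischemia. For ischemia the difference (Atp6v1b1Cre minus Hoxb7Cre) was 0.65 ± 0.35 (adjusted p = 0.262) for Umod, with a 95% interval of -0.06 to 1.37, and 0.87 ± 0.39 (adjusted p = 0.177) for Slc12a1, with an interval of 0.06 to 1.67. For Egf it was 0.10 ± 0.45, for Bsnd 0.17 ± 0.20 and for Casr -0.44 ± 0.41 (adjusted p = 1, 0.670 and 0.583). For volume depletion the 5 differences lay between 0.03 for Bsnd and 0.49 for Slc12a1, with adjusted p of 0.549 or more. Within series A, Umod and Slc12a1 passed for ischemia at 1.11 (adjusted p = 0.0256) and 1.26 (adjusted p = 0.0350), so that the answer for these genes differs between the pooled libraries and 1 series.

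Females of the same age were compared with males through the difference of their responses, over 43 pulldowns in 12 groups. In Hoxb7Cre mice 1 of 5 members passed for ischemia, against 10.5% of all genes, and 3 of 5 passed for volume depletion, against 16.0%. In each of the 4 the female response was the higher, and for volume depletion 8.51% of all genes passed in that direction. Slc12a1 after ischemia was 1682, 1701 and 2099 CPM in 3 female Hoxb7Cre libraries against 396, 484, 675 and 1422 CPM in 4 controls, a log2 fold change of 1.29 ± 0.42, and -0.57 ± 0.39 in males. The difference of the responses was 1.85 ± 0.57 (adjusted p = 0.0342). After volume depletion Slc12a1 was 569, 766, 1232 and 1300.3 CPM in females, and the difference was 1.66 ± 0.58 (adjusted p = 0.0469).

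Umod after volume depletion was 544, 600.4, 748 and 1128 CPM in 4 female Hoxb7Cre libraries against 434, 521, 543 and 898 CPM in controls, at 0.33 ± 0.25, against -1.05 ± 0.28 in males. The difference was 1.38 ± 0.37 (adjusted p = 0.0126). Casr was 59.5, 71.8, 117 and 135 CPM in depleted females and 42.6, 57.3, 58.4 and 120.1 CPM in controls, and its difference was 1.63 ± 0.50 (adjusted p = 0.0242). Egf did not pass, with differences of 1.69 ± 0.62 (adjusted p = 0.0719) for ischemia and 1.05 ± 0.63 (adjusted p = 0.256) for volume depletion, and Egf in ischemic females was 695, 749 and 1021 CPM against 130.3, 282, 313 and 320.0 CPM in ischemic males. Umod in ischemic Hoxb7Cre females was 1325, 1747 and 2023 CPM, a log2 fold change of 1.49 ± 0.27 against 0.61 ± 0.25 in males, and the difference was 0.89 ± 0.37 (adjusted p = 0.109). Fitted in females alone, Umod rose after ischemia with Hoxb7Cre, at 1.51 (adjusted p = 0.0122), and did not pass with Atp6v1b1Cre, at 0.82 (adjusted p = 0.0875). Casr for ischemia was at 0.47 ± 0.49 (adjusted p = 0.580), and Bsnd at 0.02 ± 0.26 and 0.03 ± 0.26.

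These differences rest on the female Hoxb7Cre controls, which held 1 library of series A, 1 of B and 2 of C. The series A control, replicate 1, was the highest of the 4 for Umod, Slc12a1, Egf and Casr, at 314, 428, 706 and 1556 CPM across the 4 controls for Egf, for example. Within series A no member passed: Slc12a1 was at 1.12 (adjusted p = 0.449) for ischemia and 0.89 (adjusted p = 0.547) for volume depletion, Umod at 1.14 (adjusted p = 0.309) and Casr at 1.27 (adjusted p = 0.301). With library series as a covariate over all 43 libraries the same 4 passed, Slc12a1 at 1.86 (adjusted p = 0.0267) for ischemia and 1.67 (adjusted p = 0.0341) for volume depletion, Umod at 1.28 (adjusted p = 0.00767) and Casr at 1.58 (adjusted p = 0.00488), and Egf passed as well for ischemia at 1.75 (adjusted p = 0.0309). Leaving replicate 1 out raised the number passing to 3 for ischemia and 4 for volume depletion, with Egf at 2.32 (adjusted p = 0.00776) and 1.68 (adjusted p = 0.0390) and Umod for ischemia at 1.14 (adjusted p = 0.0251). Egf for ischemia also passed without Atp6v1b1Cre iAKI replicate 6, at 1.68 (adjusted p = 0.0321). The fit within series A and the fit with series as a covariate thus gave different calls.

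Calls here also changed when other single libraries were left out, some of them outside the groups compared. Of 43 fits that each left out 1 library, Slc12a1 lost its call in 8 for ischemia and 21 for volume depletion, and Casr in 8 for volume depletion, whereas Umod for volume depletion kept its call in all, at adjusted p up to 0.0499. For Slc12a1 and ischemia they were the fits without Hoxb7Cre iAKI replicates 3, 5 or 6 and controls 2, 3, 6, 9 or 10, with adjusted p up to 0.117. For Casr they were those without vAKI replicates 1, 3, 6 or 7 and controls 2, 3, 6 or 9, with adjusted p up to 0.0714. For Slc12a1 and volume depletion they were those without Hoxb7Cre iAKI replicates 1, 2, 3, 4, 6 or 7, vAKI replicates 1, 3, 4, 6 or 7 and controls 2, 3, 5, 6, 9 or 10, and without Atp6v1b1Cre vAKI replicates 2 or 4 and controls 9 or 13, with adjusted p up to 0.109.

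With Atp6v1b1Cre, females and males were not separated in any member. Of 21175 genes 0 (0.00%) passed by edgeR's quasi-likelihood test for either injury, where 676 genes for ischemia and 1756 for volume depletion had an unadjusted p under 0.05, and DESeq2 called 1 and 45 genes, none of them a member. The 95% intervals were wide, for example -1.24 to 1.17 for Slc12a1 and -0.998 to 1.63 for Egf after ischemia. Egf in ischemic Atp6v1b1Cre females was 78.9, 431 and 679.6 CPM against 637, 659.9, 912 and 1228 CPM in controls, a log2 fold change of -1.14 ± 0.47 against -1.45 ± 0.48 in males. The lowest of these females, iAKI replicate 6, was of series B and was also lowest for Slc12a1 and Casr. Casr in depleted females was 34.7, 39.97 and 53.9 CPM against 51.3, 101.5, 103.1 and 155 CPM in controls, at -1.25 ± 0.37, and in males at -1.08 ± 0.34.

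**Figure D4:**
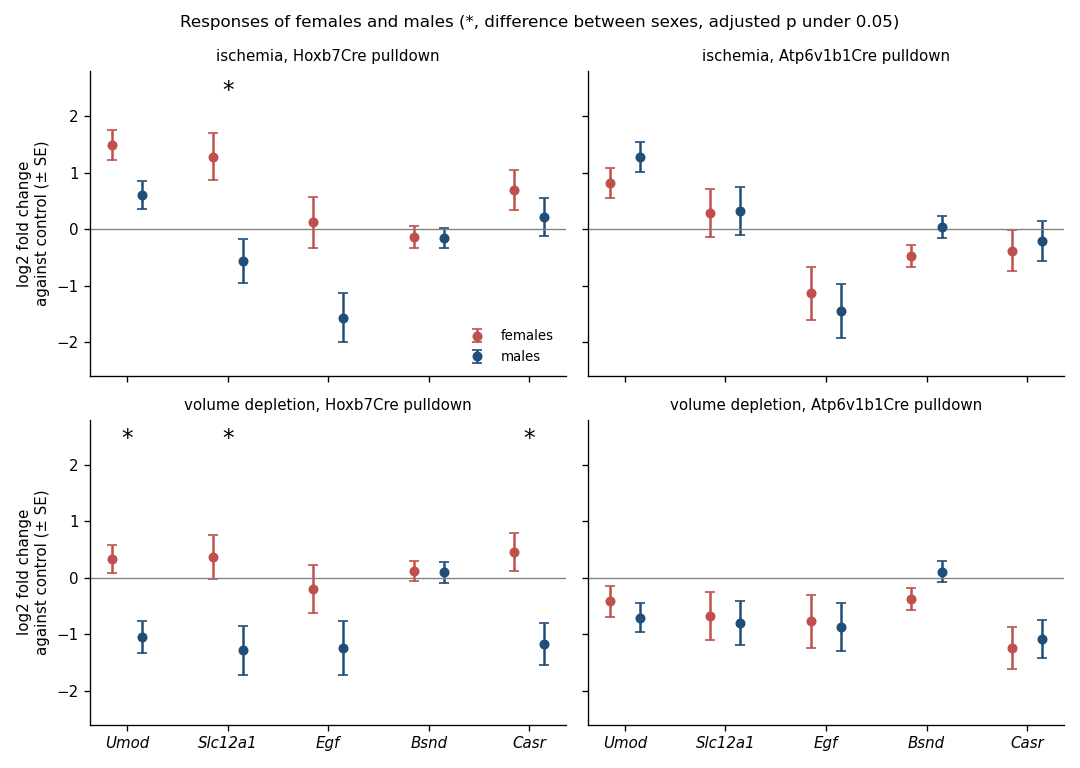
Log2 fold change (± SE) of each gene against controls of the same sex and driver, for females and males, after ischemia (upper panels) and volume depletion (lower panels), over 3 or 4 libraries a group. Stars mark a difference between sexes that passed at an adjusted p under 0.05: Slc12a1 after ischemia (1.85), and Umod (1.38), Slc12a1 (1.66) and Casr (1.63) after volume depletion, all with Hoxb7Cre.

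In control total RNA, where no pulldown intervened, all 5 genes were higher in females than in males, against a background of 29.5% of genes passing and 15.1% passing as higher in females. Slc12a1 was 2109.7, 2618 and 3263 CPM (lowest, median and highest) in 10 females and 1278, 1705 and 2131 CPM in 11 males, a log2 difference of 0.62 ± 0.09 (adjusted p = 4.21e-06). Egf was 2462, 3384 and 3966 CPM in females and 1770.4, 2271 and 2655 CPM in males, at 0.57 ± 0.08 (adjusted p = 3.64e-06). Umod was 4949, 6804 and 8207 CPM in females and 4177, 5294 and 6148 CPM in males, at 0.38 ± 0.08 (adjusted p = 0.000572). The sexes overlapped for each gene, although the sum of the 5 levels did not overlap, at 10911 to 14668 CPM in females and 7476 to 10525 CPM in males. Umod had the largest part in that sum, and how often sums of 5 genes do not overlap was not examined. For single genes 6.21% of all genes did not overlap, and no log2 difference reached 1, the size the study asked of a changed gene. Casr was at 0.44 ± 0.13 (adjusted p = 0.0131) and Bsnd at 0.26 ± 0.09 (adjusted p = 0.0392). In mice of 5.5 months only, 3 of 5 passed, with Casr at 0.42 (adjusted p = 0.0669) and Bsnd at 0.26 (adjusted p = 0.0701).

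The genes most like each member over the 21 control total RNA libraries, by Pearson's r of log2 CPM among 11480 genes with a mean of at least 5 CPM, were not other members. They were Sfxn3, Rbfox2 and Snx10 for Umod (r = 0.87, 0.86 and 0.86), Pkm, Slc4a8 and Aldoc for Slc12a1 (r = 0.94, 0.94 and 0.93), Crim1, Kdm6a and Nrbp2 for Egf (r = 0.92, 0.92 and 0.91), Hoxb8, Krt19 and Ttn for Bsnd (r = 0.84, 0.79 and 0.79) and Arhgef17, St3gal2 and Capn15 for Casr (r = 0.87, 0.85 and 0.83). The nearest member ranked 59 for Umod, 271 for Slc12a1, 222 for Egf, 145 for Bsnd and 368 for Casr. Over all 69 libraries, which span total RNA and pulldowns, the genes most like the mean of the 5 members were Slc16a7 (r = 0.88), Slc25a35 (r = 0.86), Tmem207 (r = 0.85), Rap1gap (r = 0.84) and Ganc (r = 0.83). For the pairs of nearest members, r was 0.78 for Umod and Egf, 0.80 for Slc12a1 and Egf, 0.64 for Casr and Egf and 0.61 for Bsnd and Casr. Within females it was 0.14, -0.10, 0.27 and 0.27, and within males 0.84, 0.57, 0.46 and 0.65. These values describe likeness over libraries that differ in sex, depth and, over all 69, RNA pool, whose part in it was not tested.

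A further 31 genes of the thick ascending limb were grouped as salt transport (6 genes), the paracellular pathway (4 claudins), regulators (11) and markers (10). In control pulldowns against total RNA 14 were higher and 13 lower with Hoxb7Cre, where 66.6% of all genes passed in either direction. With Atp6v1b1Cre 10 were higher and 12 lower, where 63.8% passed. The medians were -0.13 and -0.18 against 0.11 for all genes. The lowest was Wfdc15b, a marker of the limb, at -3.96 and -3.97, near the values of Umod, and Ppp1r1a, a phosphatase inhibitor, was at -3.02 and -2.79. Cdh16, the kidney cadherin, was at -2.74 with Atp6v1b1Cre and Fxyd2, a regulator of the sodium pump, at -2.47 with Hoxb7Cre. The highest were Avpr2, the vasopressin receptor that principal cells also carry, at 1.71 with Hoxb7Cre, and Wnk1, a kinase upstream of NKCC2, at 1.39 and 1.65. Esrrg, an estrogen-related receptor, was at 1.25 and 1.40, and Esrrb at 1.18 with Atp6v1b1Cre. Limb genes thus passed in both directions in the pulldowns, as the 5 members did, where most of all genes passed too.

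Between drivers 3 of the 31 passed, a share near the background of 9.93% of all genes. Lower with Atp6v1b1Cre were Cdh16 (-0.69), the mucin Muc1 (-0.95) and Avpr2 (-1.97).

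After ischemia in Hoxb7Cre males 1 of the 31 rose and 5 fell, where 6.13% of all genes passed, with a median of -0.08 against 0.00 for all genes. Cldn19, a claudin of the paracellular calcium and magnesium pathway, rose by 1.28 ± 0.26 (adjusted p = 0.00597). Avpr2 (-1.33), Muc1 (-1.17), the sodium and proton exchanger Slc9a2 (-0.73), Cab39l, a scaffold of the kinases that act on NKCC2 (-0.57), and Pou3f3, a transcription factor of the limb (-0.64), were lower. In Atp6v1b1Cre males 4 rose and 2 fell, where 8.51% of all genes passed. Cldn19 again rose, by 1.63 ± 0.27 (adjusted p = 0.00120), as did Muc1 (1.45), Ppp1r1a (1.37) and Maged2, which stabilises NKCC2 (0.83), while Hpn, the protease that releases uromodulin (-0.57), and Esrrg (-0.62) fell. Muc1 thus passed in opposite directions with the drivers, and the difference was 2.62 ± 0.31 (adjusted p = 0.000134).

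After volume depletion in Hoxb7Cre males 14 of the 31 fell and 1 rose, with a median of -0.32, and in Atp6v1b1Cre males 6 fell, with a median of -0.24, against 17.6% and 6.47% of all genes passing as lower. With Hoxb7Cre the falls were led by Avpr2 at -2.97 ± 0.35 (adjusted p = 1.44e-06), Muc1 at -2.72 ± 0.25 (adjusted p = 1.12e-07) and Cdh16 at -1.76 ± 0.26 (adjusted p = 2.33e-05), all 3 of which collecting duct cells make as well. Kcnj1, the potassium channel ROMK that recycles potassium for NKCC2, was at -1.67 and Cldn19 at -1.35. Esrrb rose, by 0.58. With Atp6v1b1Cre the falls were led by Ptger3, a prostaglandin receptor, at -1.30 ± 0.19 (adjusted p = 0.000147), by Wnk4, a kinase upstream of NKCC2, at -1.19 ± 0.18 (adjusted p = 0.000211), and by the sodium-selective claudin Cldn10 at -1.03 ± 0.17 (adjusted p = 0.000505). Cldn19, Slc9a2 and Cab39l followed. Ptger3 (-1.58), Wnk4 (-1.14) and Cldn10 (-0.75) had also fallen with Hoxb7Cre.

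Directly compared, 14 of the 31 genes passed as higher after ischemia than after volume depletion and 1 as lower with Hoxb7Cre, and 12 and 3 with Atp6v1b1Cre, where 33.3% and 29.3% of all genes passed in either direction. The medians were 0.39 and 0.23. Cldn19 had the largest difference with both drivers, at 2.62 ± 0.31 (adjusted p = 1.64e-06) and 2.43 ± 0.28 (adjusted p = 3.51e-06), followed by Avpr2 and Ptger3 with Hoxb7Cre (1.63 and 1.62) and by Ptger3 and Ppp1r1a with Atp6v1b1Cre (1.75 and 1.62). The genes that passed as lower were Esrrb with Hoxb7Cre (-0.61) and Irx1, Hpn and Esrrg with Atp6v1b1Cre (-1.23, -0.63 and -0.34). Among Umod, Slc12a1, Egf, Bsnd and Casr the corresponding range was -0.31 to 1.67 and -0.61 to 1.96, with Egf lowest and Umod highest in both.

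The difference between sexes in Hoxb7Cre mice had a like direction in the 31 genes. The female response was the higher for 11 after ischemia and 12 after volume depletion, with medians of 0.42 and 0.54, and it was the lower for 0 by edgeR's quasi-likelihood test, where 4.03% and 8.51% of all genes passed as higher. Muc1, Avpr2 and Ppp1r1a led after ischemia (2.47, 2.43 and 1.82) and Avpr2, Muc1 and Kcnj1 after volume depletion (3.18, 2.70 and 2.24). These share the female Hoxb7Cre controls described above. In control total RNA 13 of the 31 were higher in females and 3 lower, from Cldn14 (1.09), Maged2 (0.85) and Cldn19 (0.65) to Oxsr1 (-0.14), Slc9a3 (-0.38) and Hpn (-0.54).

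**Figure D5:**
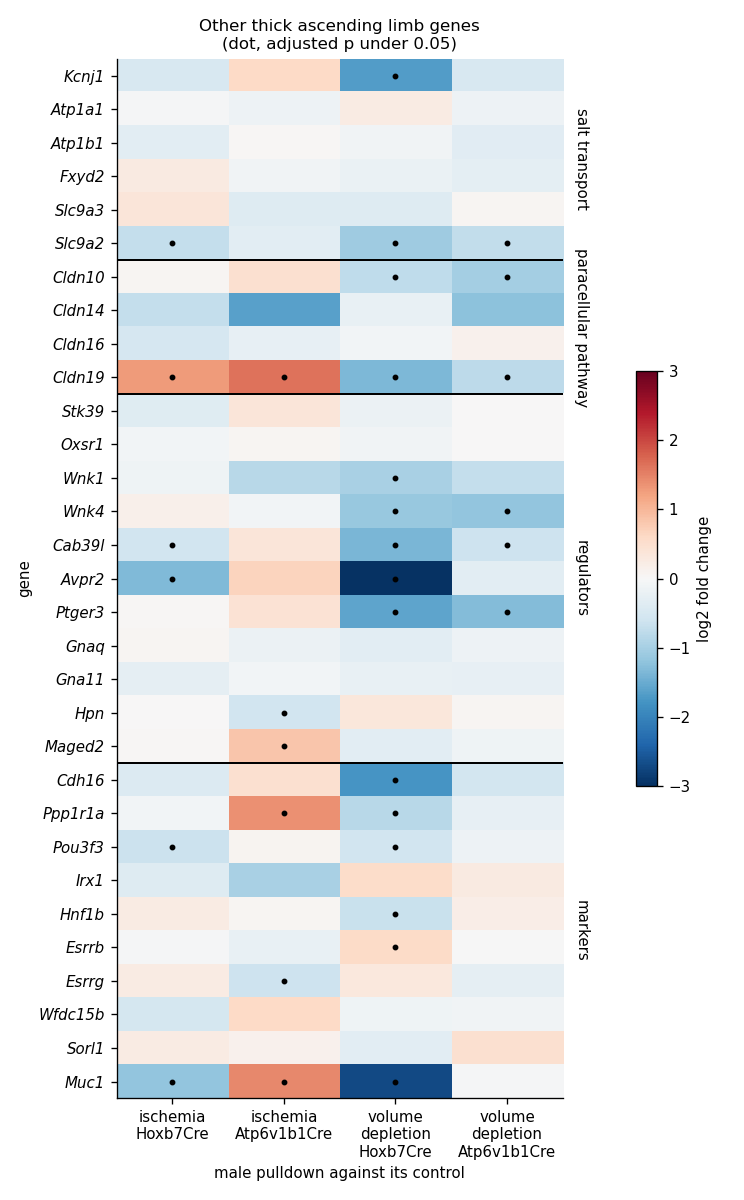
Log2 fold change (colour) of 31 other thick ascending limb genes in male pulldowns after ischemia and volume depletion against controls of the same driver, grouped by role. Dots mark genes that passed at an adjusted p under 0.05. Cldn19 rises after ischemia (1.28 and 1.63) and falls after volume depletion with both drivers, and Avpr2 is lowest after volume depletion with Hoxb7Cre at -2.97.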

How the data were processed

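Kidney RNA of mice was pulled down by its 4-TU tag or left as total RNA, and libraries were prepared with the Illumina TruSeq RNA kit. The authors deposited raw gene counts for 69 libraries of 24411 genes. Per the submitters' processing notes the tools were CASAVA 1.8.2, Trimmomatic 0.36, STAR 2.5.3a and HTSeq 0.6.1p2 with the mm10 build. Because the kit does not mark strand, reads of genes that overlap on opposite strands cannot be told apart.

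Groups were taken from the sample titles. Genes with at least 2 counts over all libraries (21175) were tested with edgeR 4.0.16 (quasi-likelihood, TMM normalization, R 4.3.3) and p-values were adjusted over all of them by Benjamini-Hochberg, with a threshold of 0.05. Separate models were fitted for the 42 control libraries (sex as covariate), the 22 male pulldowns of 5.5 months, the 43 pulldowns of 5.5 months of both sexes, and the 21 total RNA libraries (genotype as covariate). Log2 fold changes are given ± SE. DESeq2 1.42.0, DESeq2's size factors, other filters, a fold threshold, females, both sexes, library series, a replicate block and the omission of each library were tried as alternatives. The code was tested on simulated counts. Depth of 12618062 to 30305464 counts sets the precision, and intervals are at 95% and come from the spread between libraries. Gene lengths came from GENCODE M21, and promoter sequences from RefSeq.

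The 5 genes and the gene lists were chosen with earlier results of these data known. From the lists of other limb genes, the 3 highest and 3 lowest that passed in each comparison were named, and others only where a count or a figure called for it, after their values were seen. Of the limb genes listed at first, 2 are not reported here.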

Additional observations from a re-analysis of the deposited data

Results flagged for a closer look

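Umod in 1 male library, iAKI replicate 1 of Atp6v1b1Cre, stood apart at 1801 CPM, where the next of the 6 iAKI libraries of that driver, both sexes included, was at 1158 CPM. The gap was 0.825 of the range of the group, above the critical value of 0.625 for 6 libraries in Dixon's test. Of 70 groups of member levels tested in this way it was the only one to stand apart, and chance alone marks about 1 in 20. Egf in the same library was at 167.3 CPM, within the 78.9 to 679.6 CPM of the group.

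Females and males responded differently in 4 of 20 tests over the 5 genes, both injuries and both drivers. All were in Hoxb7Cre pulldowns, with the female response higher: Slc12a1 after ischemia by 1.85, and Umod by 1.38, Slc12a1 by 1.66 and Casr by 1.63 after volume depletion, each a difference of log2 fold changes by edgeR's quasi-likelihood test (adjusted p = 0.0342, 0.0126, 0.0469 and 0.0242). Of all genes 10.5% passed for ischemia and 16.0% for volume depletion with Hoxb7Cre, and 0.00% for both with Atp6v1b1Cre. None of the 4 passed within library series A, where the female controls come down to 1 library, and all 4 passed with library series as a covariate.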

How the results depend on the processing

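Of 990 alternative values, those for members passing in the comparison kept direction and call in 296 cases, lost the call in 45 and turned sign in 4, which were Egf for ischemia and Umod, Slc12a1 and Casr for volume depletion with Hoxb7Cre, all in females only. Of the values for members that did not pass, 406 stayed so with the same sign, 21 passed and 53 turned sign. The number of members passing lay within 1.5 times the reported one in 136 cases and outside it in 29. With a 2-fold change also asked for, the number of members passing was 3 rather than 5 for Hoxb7Cre against total RNA, 0 rather than 1 for the drivers in controls, 1 rather than 2 for volume depletion in Atp6v1b1Cre and 0 rather than 5 for females against males in total RNA. With DESeq2, the number of members passing was 4 rather than 2 for volume depletion in Atp6v1b1Cre and 2 rather than 1 for the sex difference for ischemia in Hoxb7Cre. With DESeq2's size factors, the number of members passing was 1 rather than 2 for volume depletion in Atp6v1b1Cre. Without the filter, the number of members passing was 1 rather than 2 for volume depletion in Atp6v1b1Cre. With only the groups compared in the model, the number of members passing was 1 rather than 2 for volume depletion in Atp6v1b1Cre. With all 25 males, the number of members passing was 1 rather than 2 for volume depletion in Atp6v1b1Cre. Here the sign changed to Bsnd -0.0361 for ischemia in Atp6v1b1Cre and Bsnd -0.056 for the driver difference for volume depletion. With both sexes pooled and sex as a covariate, the number of members passing was 0 rather than 4 for volume depletion in Hoxb7Cre and 1 rather than 2 for ischemia against volume depletion in Hoxb7Cre. This also gave the opposite sign in Slc12a1 0.32 for ischemia in Hoxb7Cre, Bsnd -0.20 for ischemia in Atp6v1b1Cre, Bsnd -0.0916 for volume depletion in Atp6v1b1Cre and Slc12a1 -0.0177, Egf -0.54 and Bsnd -0.0427 for the driver difference for ischemia. They also turned to Umod -0.29, Slc12a1 -0.34, Egf -0.0731, Bsnd -0.22 and Casr -0.97 for the driver difference for volume depletion. In females only, the number of members passing was 0 rather than 2 for ischemia in Atp6v1b1Cre, 0 rather than 4 for volume depletion in Hoxb7Cre, 1 rather than 2 for volume depletion in Atp6v1b1Cre, 1 rather than 2 for ischemia against volume depletion in Hoxb7Cre and 1 rather than 3 for ischemia against volume depletion in Atp6v1b1Cre. Opposite signs were found in Slc12a1 1.30 and Egf 0.14 for ischemia in Hoxb7Cre, Bsnd -0.48 for ischemia in Atp6v1b1Cre, Umod 0.33, Slc12a1 0.37 and Casr 0.46 for volume depletion in Hoxb7Cre and Bsnd -0.38 for volume depletion in Atp6v1b1Cre. They also turned to Egf 0.33 for ischemia against volume depletion in Hoxb7Cre, Umod -0.69, Slc12a1 -1.01, Egf -1.27 and Bsnd -0.36 for the driver difference for ischemia, Umod -0.75, Slc12a1 -1.06, Egf -0.59, Bsnd -0.51 and Casr -1.72 for the driver difference for volume depletion and Umod 0.083 and Egf 0.11 for the drivers in controls. In males only, the number of members passing was 2 rather than 1 for the drivers in controls. Signs turned there to Slc12a1 -0.17 for the drivers in controls. Within library series A, the number of members passing was 2 rather than 0 for the driver difference for ischemia, 0 rather than 1 for the sex difference for ischemia in Hoxb7Cre and 0 rather than 3 for the sex difference for volume depletion in Hoxb7Cre. Here the sign changed to Casr -0.25 for ischemia in Hoxb7Cre, Bsnd -0.0675 for volume depletion in Atp6v1b1Cre, Bsnd 0.26 for ischemia against volume depletion in Atp6v1b1Cre and Bsnd -0.25 for the driver difference for volume depletion. They also turned to Slc12a1 0.23 for the sex difference for ischemia in Atp6v1b1Cre and Egf -0.13 for the sex difference for volume depletion in Atp6v1b1Cre. With library series as a covariate, the number of members passing was 4 rather than 2 for volume depletion in Atp6v1b1Cre and 2 rather than 1 for the sex difference for ischemia in Hoxb7Cre. This also gave the opposite sign in Casr -0.0174 for ischemia in Hoxb7Cre, Bsnd -0.081 for the driver difference for volume depletion, Bsnd -0.11 for the sex difference for ischemia in Hoxb7Cre and Bsnd -0.0934 for the sex difference for volume depletion in Hoxb7Cre. They also turned to Slc12a1 -0.0336 for the sex difference for volume depletion in Atp6v1b1Cre. In mice of 5.5 months only, the number of members passing was 3 rather than 5 for females against males in total RNA. The cause of these changes was not tested, beyond that fewer libraries enter when females, males, an age or a series is taken alone.

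Leaving out each library in turn, the number of members passing ranged from 1 to 2 for ischemia in Hoxb7Cre, 0 to 2 for ischemia in Atp6v1b1Cre, 0 to 4 for volume depletion in Atp6v1b1Cre, 0 to 3 for the sex difference for ischemia in Hoxb7Cre and 1 to 4 for the sex difference for volume depletion in Hoxb7Cre. Values whose sign turned ran for Casr from -0.0121 to 0.49 for ischemia in Hoxb7Cre, Slc12a1 from -0.20 to 0.57 for ischemia in Atp6v1b1Cre, Bsnd from -0.0496 to 0.13 for ischemia in Atp6v1b1Cre, Bsnd from -0.20 to 0.0131 for ischemia against volume depletion in Atp6v1b1Cre and Egf from -0.33 to 0.33 for the driver difference for ischemia. Others ran for Bsnd from -0.0756 to 0.14 for the driver difference for volume depletion, Casr from -0.16 to 0.31 for the driver difference for volume depletion, Bsnd from -0.0735 to 0.23 for the sex difference for ischemia in Hoxb7Cre, Slc12a1 from -0.43 to 0.51 for the sex difference for ischemia in Atp6v1b1Cre and Egf from -0.31 to 0.81 for the sex difference for ischemia in Atp6v1b1Cre. Others ran for Casr from -0.48 to 0.15 for the sex difference for ischemia in Atp6v1b1Cre, Bsnd from -0.0635 to 0.24 for the sex difference for volume depletion in Hoxb7Cre, Slc12a1 from -0.0776 to 0.38 for the sex difference for volume depletion in Atp6v1b1Cre, Egf from -0.21 to 0.38 for the sex difference for volume depletion in Atp6v1b1Cre and Casr from -0.39 to 0.10 for the sex difference for volume depletion in Atp6v1b1Cre.

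Replicate numbers in the labels gave no pairing of the libraries. Same-numbered libraries of the compared groups correlated in their deviations from the group means by a mean r of -0.45 to 0.21 across the male pairings. Each of these held at most 3 pairs. Between control pulldowns and total RNA the mean r was 0.03 and 0.08. Total RNA numbers run across both drivers and join some unlike mice, so these values cannot decide whether pulldown and total RNA share mice. The order of the library numbers, by which control pulldowns and total RNA libraries match in driver, sex and age, was not used for a pairing. With the replicate block, the number of members passing was 2 rather than 1 for ischemia in Hoxb7Cre, 0 rather than 2 for ischemia in Atp6v1b1Cre, 0 rather than 1 for the sex difference for ischemia in Hoxb7Cre and 0 rather than 3 for the sex difference for volume depletion in Hoxb7Cre. Signs turned there to Bsnd -0.24 for volume depletion in Hoxb7Cre, Bsnd 0.00524 for ischemia against volume depletion in Atp6v1b1Cre, Umod -0.24 and Egf -0.43 for the driver difference for ischemia and Umod -0.59, Egf -0.27 and Casr -1.35 for the driver difference for volume depletion. They also turned to Casr -0.64 for the sex difference for ischemia in Hoxb7Cre, Slc12a1 1.48 and Casr 0.0333 for the sex difference for ischemia in Atp6v1b1Cre, Egf -0.0358 for the sex difference for volume depletion in Hoxb7Cre and Casr 0.49 for the sex difference for volume depletion in Atp6v1b1Cre. With sex and the replicate block, the number of members passing was 2 rather than 1 for the drivers in controls. Here the sign changed to Egf 0.15 for the drivers in controls. Genes called under the block were 878 rather than 1298 for ischemia in Hoxb7Cre, 0 rather than 1803 for ischemia in Atp6v1b1Cre, 0 rather than 2231 for the sex difference for ischemia and 1 rather than 3387 for that for volume depletion in Hoxb7Cre. The numbers only count libraries within a title group, across sexes and series. The block is thus not a known unit of the design, and calls lost under it do not bear on pairing.

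The least abundant member had 335 counts or more in every library, and the injury comparisons rest on groups of 3 or 4 libraries.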
